A study of Homo sapiens with 4 samples.

Results

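Hyaluronan is a long, unsulphated sugar polymer of the matrix around cells. The genes described here make it, cut it or bind it. They were taken by gene name from a table of 60675 genes: the synthases HAS1, HAS2 and HAS3, the precursor enzyme UGDH, the hyaluronidases HYAL1, HYAL2, HYAL3 and SPAM1, and the receptors CD44 and HMMR. All 10 names had 1 row each. The cells were HT1080, a human fibrosarcoma line with an activated NRAS allele, and the only group was a KDAC8 knockout of that line with 4 replicate libraries. KDAC8, a lysine deacetylase, is the product of HDAC8. No unedited or control library was analysed here, so the values are levels and spreads in knockout cells, and no effect of the knockout can be given. The labels do not say whether the knockout line was a single clone or whether the replicates were separate cultures, so each p-value covers no more than the spread of these 4 samples, part or all of which may be technical.

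Hyaluronan is built at the plasma membrane by the HAS enzymes, which join UDP-glucuronic acid and UDP-N-acetylglucosamine in turn and push the growing chain out of the cell. UGDH makes the first of these sugars by oxidising UDP-glucose. HYAL2, held at the cell surface, and HYAL1, in lysosomes, cleave the polymer, and SPAM1 is the hyaluronidase of the sperm head. CD44 is the main surface receptor in connective tissue cells and carries hyaluronan signals to the actin cytoskeleton. HMMR, also called RHAMM, binds hyaluronan outside the cell and is a spindle protein inside it, with mRNA that peaks in the G2 and M phases of the cell cycle.

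Levels are given as CPM, counts scaled to a common effective library size, with the SD over the 4 libraries (n = 4). This scale ignores gene length, so different genes are set against each other only in CPM per kilobase of annotated exon. Of the 10 genes, 7 reached 1 CPM in every library, HYAL1 was present below that level, and HAS1 and SPAM1 had 0 counts in all 4 libraries. Per kilobase, CD44 stood far above the others, HMMR, UGDH and HYAL2 formed a middle tier, and HAS2, HYAL3 and HAS3 were low.

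The bases in front of the start sites are shown for 5 of these genes, HAS1, SPAM1, HAS3, CD44 and HMMR, which include the extremes of level. HAS1 and SPAM1 had 0 counts, and HAS3 was the lower of the 2 expressed synthases. CD44 was the top gene, and HMMR is a cell cycle gene. Each sequence is the 250 bases before the RefSeq start site (GRCh38.p14), read 5′ to 3′ on the gene's strand. For the first 4 genes, capitals mark each CG dinucleotide, the site of DNA methylation. For HMMR, capitals mark 2 motifs on either strand: CCAAT, the box bound by NF-Y, and TTTGAA, the cell cycle homology region of genes transcribed in G2 and M. The windows are at chr19:51723992-51724241 (reverse strand) for HAS1, chr7:123924991-123925240 (forward) for SPAM1, chr16:69107290-69107539 (forward) for HAS3, chr11:35138921-35139170 (forward) for CD44 and chr5:163460382-163460631 (forward) for HMMR.
HAS1: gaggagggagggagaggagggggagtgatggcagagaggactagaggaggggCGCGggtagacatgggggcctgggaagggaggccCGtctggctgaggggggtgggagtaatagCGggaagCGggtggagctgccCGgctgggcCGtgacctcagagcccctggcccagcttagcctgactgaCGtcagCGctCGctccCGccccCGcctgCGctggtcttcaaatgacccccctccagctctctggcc
SPAM1: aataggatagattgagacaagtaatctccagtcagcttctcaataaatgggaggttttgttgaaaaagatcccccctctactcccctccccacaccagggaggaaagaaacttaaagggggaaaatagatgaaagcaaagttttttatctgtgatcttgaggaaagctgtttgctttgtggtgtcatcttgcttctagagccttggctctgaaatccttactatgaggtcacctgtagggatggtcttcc
HAS3: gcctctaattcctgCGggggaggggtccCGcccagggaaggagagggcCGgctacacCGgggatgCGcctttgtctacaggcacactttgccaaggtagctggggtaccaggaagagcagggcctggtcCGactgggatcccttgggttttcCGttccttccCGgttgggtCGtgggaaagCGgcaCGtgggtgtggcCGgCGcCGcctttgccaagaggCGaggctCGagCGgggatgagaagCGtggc
CD44: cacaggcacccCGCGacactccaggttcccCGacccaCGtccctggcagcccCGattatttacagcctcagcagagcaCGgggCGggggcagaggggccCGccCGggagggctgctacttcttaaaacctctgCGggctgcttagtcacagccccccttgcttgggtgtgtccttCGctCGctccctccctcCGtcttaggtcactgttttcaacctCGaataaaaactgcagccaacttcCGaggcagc
HMMR: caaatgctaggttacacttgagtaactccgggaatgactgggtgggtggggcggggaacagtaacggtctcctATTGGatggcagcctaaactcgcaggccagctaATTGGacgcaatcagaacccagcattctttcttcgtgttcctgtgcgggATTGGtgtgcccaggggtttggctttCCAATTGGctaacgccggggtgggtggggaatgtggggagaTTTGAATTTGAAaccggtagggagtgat

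The SPAM1 window held 0 CG dinucleotides and the HAS1 window held 13, so these genes at 0 counts differed in that feature. The HAS3 and CD44 windows held 18 and 15, against a median of 11 over the 35116 RefSeq windows of the same length. The HMMR window held 10 CG dinucleotides. It held 5 matches to CCAAT, counting both strands, of which the pair at 69 and 66 bases before the start site overlap, and 2 to TTTGAA, 28 and 22 bases before it. At least 1 CCAAT was present in 32.0% of all windows and 5 or more in 0.319%. TTTGAA was present in 13.3% of windows, and 2 or more copies in 1.72%. Besides HMMR, the HAS1 window held 1 TTTGAA, and no other member's window held either motif. Windows of 9 of the 10 members were used, and that of HAS2 is not reported here. Those of HYAL2 and HYAL1 held 9 and 4 CG dinucleotides, that of UGDH held 10, and the pair listed for HYAL3 held 15 and 14. The GC box GGGCGG, present in 42.6% of all windows, occurred in every member's window but those of HYAL2 and SPAM1. The AP-1 site TGANTCA, present in 6.57% of all windows, occurred in no member's window. A match describes these letters and does not show that a factor binds there.

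**Figure D1:**
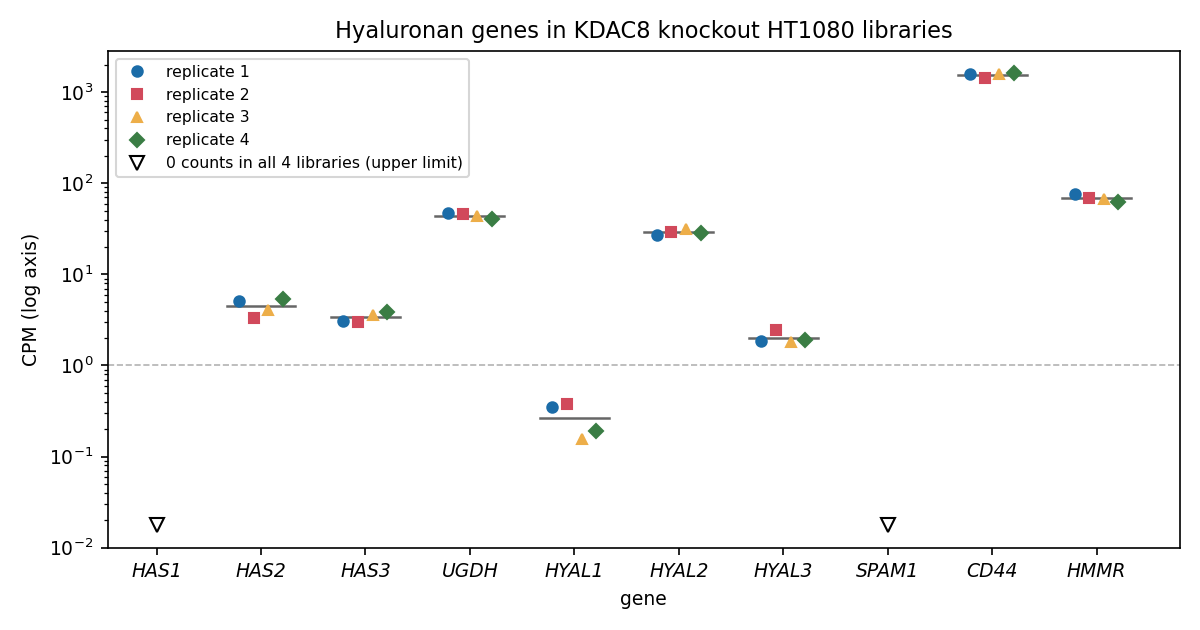
Level of each hyaluronan gene in CPM (log axis) in the 4 KDAC8 knockout libraries. Each symbol is a library, grey bars are means, the dashed line is 1 CPM, and open triangles mark genes with 0 counts at their upper limit of 0.0176 CPM. Of the genes above 0, the libraries lie furthest apart for HYAL1 (2.46 times), then for HAS2 (1.63 times), and CD44 is the highest.

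Total counts were 39454167 to 45828772 per library. The targeted gene, HDAC8, had 1.98, 2.11, 2.10 and 2.53 CPM in replicates 1 to 4. Reads are summed over all exons of the gene, edited or not, so this level does not check the knockout label. Of the 12 mesenchymal markers, 10 reached 1 CPM in every library, led per kilobase by VIM (911 CPM per kilobase) and COL6A3 (185), while THY1 and S100A4 stayed below it, and 9 of 11 tested varied. Of 6 epithelial markers, EPCAM, CDH1 and KRT5 had 0 counts, while KRT8 (230 ± 21.5 CPM), KRT18 (159 ± 11.7 CPM) and CLDN4 (2.49 ± 0.438 CPM) were present. None of the 4 haematopoietic, 5 endothelial or 5 sperm and testis markers reached 1 CPM in any library, with LYZ (0.520 ± 0.261 CPM) and TEK (0.654 ± 0.110 CPM) the highest. All 3 epithelial markers tested, LYZ (though not without replicate 4) and all 5 structural RNAs varied by the test given next, and neither endothelial marker tested did. Libraries differed in composition: replicate 2 had the highest share of counts in 5 short structural RNAs, 10.4% against 6.92% to 8.94% in the others, and the lowest share in mitochondrial genes, 1.99% against 2.58% to 3.28%.

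For each gene, a chi-square test asked whether its 4 libraries differed by more than counting noise, and p-values were adjusted over the 16790 genes averaging at least 10 counts. Over all genes tested, 59.2% were called at an adjusted p under 0.05. Of the hyaluronan genes, 8 passed the count filter and 5 of them (62.5%) were called: HAS2, UGDH, HYAL2, CD44 and HMMR. That share is close to the share over all genes. HAS3, HYAL1 and HYAL3 were not called, and HAS1 and SPAM1 could not be tested. The highest and lowest library differed by a median of 1.25 times in the 8 genes, against 1.22 times over all genes tested. When the noise term also allowed the spread common to all genes in these replicates (a biological coefficient of variation of 0.0924), 4.31% of all genes were called and 0 of the 8. At an unadjusted p under 0.05, 1 of the 8 passed that second test. The share of all genes at this unadjusted threshold is not given, so nothing is read from that count. The counts of varying genes given for the other gene groups are against counting noise and are to be read beside the 59.2%. That test calls smaller differences at higher counts, and the groups differ in level. All genes tested had a median of 15.2 CPM, against 95.7 for the listed G2/M genes, 85.9 for precursor genes and 7.12 for genes next to members. A share above 59.2% is therefore not read as more variation in a group. With the replicate spread allowed, 0 genes were called in each of those groups, except for 1 gene next to a member, UGDH-AS1, and 2 structural RNAs.

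UGDH, the precursor enzyme (ENSG00000109814, chromosome 4, 39498755 to 39528311, GRCh38, reverse strand), had 46.7, 46.0, 44.3 and 40.2 CPM in replicates 1 to 4. Replicate 4 was the lowest and the other 3 lay within 1.05 times of each other. The mean was 44.3 ± 2.93 CPM, or 10.9 ± 0.724 CPM per kilobase, and 70.6% of detected genes had a lower level per kilobase. UGDH was called as varying (chi-square test, adjusted p = 6.83e-05), but not without replicate 4 (adjusted p = 0.330). UGDH-AS1, a noncoding RNA on the opposite strand, shares 293 exonic bases with UGDH and had 53.8, 51.1, 52.4 and 103 CPM in replicates 1 to 4. Replicate 4, lowest for UGDH, was therefore the highest for UGDH-AS1, which was also called with the replicate spread allowed (adjusted p = 1.34e-08). The strand setting of the counting was not stated. Opposite strands did not keep the reads of HAS3 and its neighbour CHTF8 apart in replicates 1 and 2, as described below. For UGDH, the deposited counts were whole in all 4 libraries (1887, 1939, 2006 and 1698). Their sums with UGDH-AS1 were not whole (4062.91, 4090.95, 4380.14 and 6038.07), so these values show no sharing between UGDH and UGDH-AS1. How reads over the shared bases were assigned was not tested and stays uncertain.

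The other listed genes of precursor metabolism were all present. The list holds 14 genes, mostly enzymes on the way to the sugar precursors, with UXS1, which uses up UDP-glucuronic acid, and SLC35D1, a nucleotide-sugar transporter. All 14 reached 1 CPM in every library, with a median of 11.2 CPM per kilobase, against 5.57 over all detected genes. UAP1, which makes UDP-N-acetylglucosamine, was highest at 84.2 CPM per kilobase (289 ± 23.8 CPM). GFPT2, an enzyme of the first committed step of hexosamine synthesis, followed at 55.6 CPM per kilobase (266 ± 2.77 CPM) and exceeded its paralog GFPT1 (10.9 CPM per kilobase). The glycolytic enzymes HK1 and GPI stood at 46.5 and 31.4 CPM per kilobase. Of the 14 genes, 13 were called as varying against counting noise and 0 with the replicate spread allowed, and GFPT2 was not called by either (adjusted p = 0.362 against counting noise). NAGK, which salvages N-acetylglucosamine, had the largest SD of log2 CPM of those called (0.17), at 14.7 ± 1.77 CPM.

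Of the 3 synthases, HAS2 and HAS3 were expressed at low levels and HAS1 was not detected. HAS2, the main synthase of mesenchymal cells (ENSG00000170961, chromosome 8, 121612116 to 121641390, reverse strand), had 205, 139, 184 and 228 counts in replicates 1 to 4. These counts gave 5.07, 3.30, 4.06 and 5.39 CPM, a mean of 4.46 ± 0.957 CPM. Replicate 2 was lowest and replicate 4 highest, 1.63 times apart, and their exact Poisson 95% intervals, 117 to 164 counts and 199 to 260 counts, did not meet. HAS2 was called as varying (adjusted p = 3.24e-05), and was still called without replicate 2 (adjusted p = 0.0406), when the remaining libraries differed by 1.33 times. Its SD of log2 CPM, 0.32, was above that of 91.5% of the 1175 genes with a mean within 0.5 log2 units of its own. HAS2 had the largest such share of the members tested, and the others ran from 25.6% (CD44) to 78.7% (HMMR). With the replicate spread allowed, HAS2 was not called (adjusted p = 0.226).

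The libraries stood in the same order for HAS2 CPM and for the mitochondrial share of counts, replicate 4 highest, then replicates 1, 3 and 2. The structural RNA share was highest in replicate 2. Among 9480 genes at 10 CPM or more, the 3 whose library deviations lay closest to those of HAS2 were MT-ND2, ANKHD1-EIF4EBP3 and MT-CO2. Their root-mean-square differences were 0.05, 0.06 and 0.07 log2 units over the 4 libraries, and 13 genes in all lay within 0.1. With 139 to 228 HAS2 counts per library, counting error in its deviations is larger than these differences. The order among the close genes is therefore uncertain. MT-ND2 and MT-CO2 are mitochondrial mRNAs of the respiratory chain. The part of library composition in the HAS2 values was not tested. HAS2-AS1, a noncoding RNA opposite HAS2 with 201 shared exonic bases, had 1, 3, 3 and 1 counts.

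HAS3 (ENSG00000103044, chromosome 16, 69105564 to 69118719, forward strand), a synthase found in epithelial and many tumour cells, had 3.04, 3.02, 3.62 and 3.86 CPM in replicates 1 to 4. The mean was 3.38 ± 0.421 CPM, with replicates 1 and 2 below replicates 3 and 4, and no difference beyond counting noise was called (adjusted p = 0.127). HAS3 shares 365 exonic bases with CHTF8, a replication factor gene on the opposite strand at 91.8 ± 6.28 CPM. The deposited expected counts were not whole in replicates 1 and 2, 123.44 and 126.74 for HAS3, and 3577.56 and 4168.26 for CHTF8. Within each of those libraries the pair summed to a whole number, 3701 and 4295. The level of HAS3 is therefore uncertain by the reads it shares with CHTF8.

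HAS1 (ENSG00000105509, chromosome 19, 51713112 to 51723994, reverse strand), the third synthase, had 0 counts in each library. A count of 0 over the 4 libraries allows up to 0.0176 CPM (3 counts), which covers counting error only. Per kilobase, HAS2 was at least 135-fold and HAS3 at least 81.5-fold higher than HAS1, taking 3 counts over the group as the limit for HAS1. HAS2 exceeded HAS3 per kilobase in 4 of 4 libraries, at 1.06 ± 0.228 and 0.640 ± 0.0795 CPM per kilobase. The log2 ratio of HAS2 to HAS3 was 1.07, 0.47, 0.50 and 0.82 in replicates 1 to 4, a mean of 0.72 ± 0.29. HAS2 took 62.5%, 52.3%, 52.9% and 58.3% of the synthase counts, and the exact 95% intervals for replicates 2 and 3 included an even split (46.1% to 58.4% and 47.5% to 58.2%). Replicates 2 and 3 had the most even split and replicate 1 the least even.

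**Figure D2:**
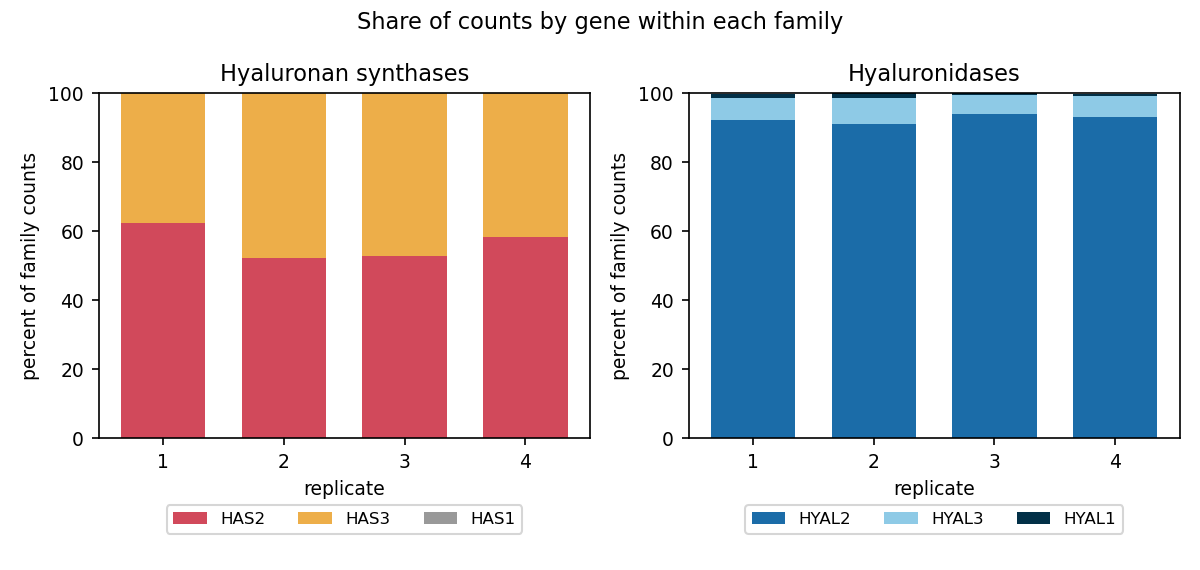
Percent of the counts of HAS1, HAS2 and HAS3 (left) and of HYAL1, HYAL2 and HYAL3 (right) that fell on each gene in replicates 1 to 4; counts are not divided by length. HAS2 held 52.3% to 62.5% of synthase counts and HAS1 none, and HYAL2 held 91.3% to 94.1% of hyaluronidase counts.

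Among HYAL1, HYAL2, HYAL3 and SPAM1, HYAL2 was the only one above a few CPM. HYAL2 (ENSG00000068001, chromosome 3, 50317790 to 50322906, reverse strand) had 27.2, 29.5, 31.3 and 28.5 CPM in replicates 1 to 4, a mean of 29.1 ± 1.72 CPM. The libraries differed by 1.15 times, with replicate 1 lowest and replicate 3 highest. HYAL2 was called (adjusted p = 0.00927), but not without replicate 1 (adjusted p = 0.102) or replicate 3 (adjusted p = 0.235), nor when total counts replaced the TMM scaling (adjusted p = 0.0783). Per kilobase it stood at 6.41 ± 0.379 CPM, and 54.3% of detected genes were lower. TUSC2, the neighbour on the same strand, shares 509 exonic bases with HYAL2 and had 19.4 ± 1.18 CPM.

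HYAL3 (ENSG00000186792, chromosome 3, 50292831 to 50299468, reverse strand), a hyaluronidase family member of weak activity, had 1.88, 2.45, 1.81 and 1.92 CPM. Replicate 2 stood above the other 3 libraries, which lay within 1.06 times of each other, but the gene was not called (adjusted p = 0.197). It overlaps NAA80, an actin acetyltransferase gene on the same strand listed as NAT6 in the table, with 248 shared exonic bases, and IFRD2 with 43. In replicate 4 the deposited values of HYAL3 and NAA80 were 81.43 and 253.57 and summed to 335, so reads were split between the pair. HYAL1 (ENSG00000114378, chromosome 3, 50299889 to 50312381, reverse strand), the lysosomal enzyme, had 14, 16, 7 and 8 counts, or 0.346, 0.380, 0.155 and 0.189 CPM. Replicates 1 and 2 were higher than replicates 3 and 4, a spread that was not detectable as more than counting noise (adjusted p = 0.152). SPAM1 (ENSG00000106304, chromosome 7, 123925237 to 123971414, forward strand) was at 0 counts throughout, which again allows up to 0.0176 CPM. Of the 5 sperm and testis markers, 4 were at 0 as well, and ACR had 1 count in replicate 3.

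HYAL2 exceeded its paralogs in every library. The log2 ratio per kilobase of HYAL2 to HYAL1 was 6.33 ± 0.69, of HYAL2 to HYAL3 2.70 ± 0.21, and of HYAL3 to HYAL1 3.63 ± 0.53. These are 80.5-fold, 6.50-fold and 12.4-fold differences. HYAL2 held 92.7 ± 1.19% of the counts of the 3 genes, and 85.6 ± 2.05% per kilobase. HYAL3 held 6.41 ± 0.868% of the counts and HYAL1 0.859 ± 0.371%.

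Other genes that break hyaluronan down were detected in 4 of 5 cases, and 3 of the 4 varied against counting noise, but 0 with the replicate spread allowed. CEMIP, a hyaluronan-depolymerising protein of fibroblasts, had 14.9, 11.0, 16.2 and 17.5 CPM, a mean of 14.9 ± 2.80 CPM (adjusted p = 2.02e-13). Replicate 2 was lowest and replicate 4 highest, as in HAS2. CEMIP2, a surface hyaluronidase listed as TMEM2 in the table, had 49.0, 43.9, 48.7 and 53.3 CPM, again with replicate 2 lowest (adjusted p = 1.01e-07). The lysosomal exoglycosidases GUSB and HEXA, which act on the freed sugars, had 30.7 ± 1.16 CPM (7.69 CPM per kilobase) and 69.9 ± 2.96 CPM (5.54 CPM per kilobase). HEXA was called as varying (adjusted p = 0.0021), and GUSB was not (adjusted p = 0.175). HYAL4, named as a hyaluronidase but known to cleave chondroitin sulphate, had 0, 1, 3 and 1 counts. Without replicate 2, 1 of these genes was called in place of 3, and over all genes 8244 were called in place of 9944.

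**Figure D3:**
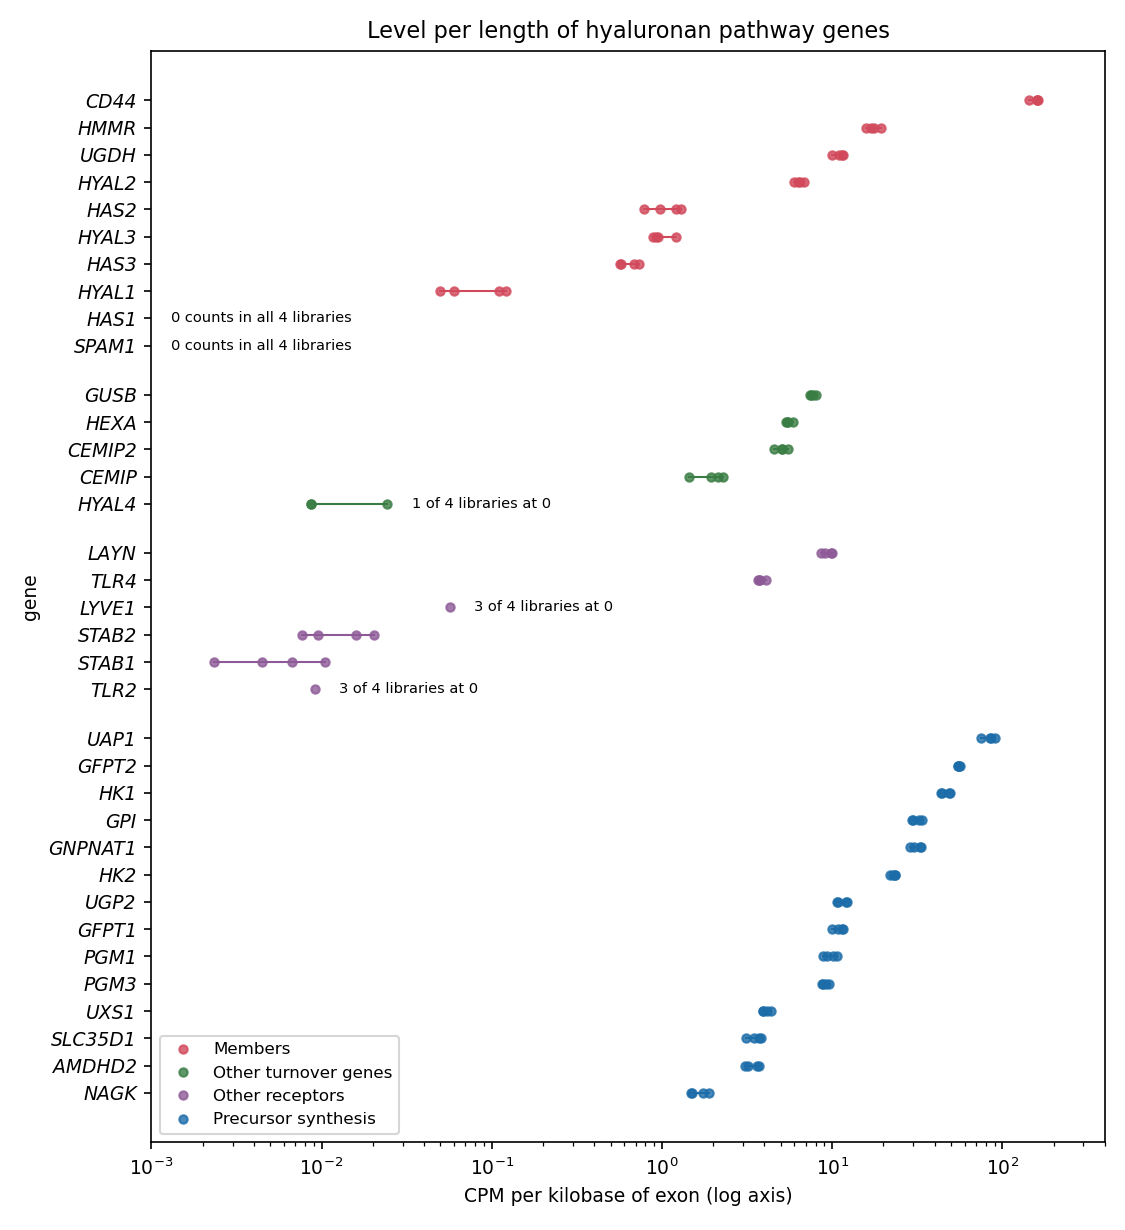
CPM per kilobase of annotated exon (log axis) for the 10 hyaluronan genes, other turnover genes, other receptors and precursor enzymes. Each point is a library above 0 and lines join the lowest and highest; CD44 (156 CPM per kilobase) and UAP1 (84.2) lie at the top, and HAS2, HYAL3 and HAS3 lie near 1.

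CD44 was among the most abundant transcripts of these cells. CD44 (ENSG00000026508, chromosome 11, 35138870 to 35232402, forward strand) had 1605, 1432, 1592 and 1612 CPM in replicates 1 to 4, a mean of 1560.1 ± 85.8 CPM. Replicate 2 was apart from the other 3 libraries, which lay within 1.01 times of each other. The variation was called (adjusted p = 7.51e-127), and without replicate 2 it was near the threshold (adjusted p = 0.0411). Per kilobase, CD44 stood at 156 ± 8.57 CPM over an exonic length of 10004 bases that joins all variant exons. Its longest annotated transcript has 5732 bases, and the level was 272 CPM per kilobase over that length. Of detected genes, 98.5% were lower per kilobase of exon. A gene-level count does not show which variant exons were included. ESRP1 and ESRP2, the epithelial splicing factors that favour CD44 variant exons, had 0.0777 ± 0.0371 and 0.389 ± 0.148 CPM and were picked for mention after their values were seen.

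Of a list of 15 genes for partners and processing of CD44, which includes ESRP1 and ESRP2, 10 were detected. Of the 13 tested, 9 were called as varying against counting noise and 0 with the replicate spread allowed. MMP14, the membrane protease that sheds CD44, was highest at 178 CPM per kilobase (795 ± 73.5 CPM). Moesin (MSN), an actin linker of the CD44 tail, had 146 CPM per kilobase (870 ± 22.0 CPM), and ezrin (EZR) 76.6 CPM per kilobase (256 ± 17.9 CPM). Serglycin (SRGN), a proteoglycan ligand, had 122 CPM per kilobase (149 ± 12.3 CPM). Osteopontin (SPP1), another ligand, had the largest SD of log2 CPM of the called genes (0.14), at 17.7 ± 1.70 CPM.

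HMMR (ENSG00000072571, chromosome 5, 163460203 to 163491945, forward strand) had 76.7, 69.6, 67.0 and 62.7 CPM in replicates 1 to 4, a mean of 69.0 ± 5.88 CPM. Replicate 1 was highest and replicate 4 lowest, 1.22 times apart, and the gene was called as varying (adjusted p = 1.63e-12). Per kilobase it stood at 17.5 ± 1.49 CPM, above 81.9% of detected genes. CD44 exceeded HMMR per kilobase in 4 of 4 libraries, with a log2 ratio of 3.16 ± 0.15, which is 8.91-fold. HMMR-AS1, opposite HMMR, had 0, 5, 1 and 1 counts.

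All 22 genes of a G2/M list and all 10 genes of HMMR partners in the spindle were detected. Against counting noise, 21 and 10 of them were called as varying, and 0 of either with the replicate spread allowed. TOP2A, CDC20, UBE2C and CCNB1 led the G2/M list at 78.7, 77.9, 68.8 and 60.8 CPM per kilobase, and MKI67 had the largest SD of log2 CPM (0.23), at 371 ± 55.9 CPM. TPX2, which binds HMMR at the spindle, led the partners at 72.3 CPM per kilobase, followed by CSNK1A1 (43.8), DYNLL1 (34.0) and TUBG1 (25.2), the last with the largest SD of log2 CPM (0.15). The HMMR deviations from its mean were 0.16, 0.02, -0.04 and -0.13 log2 units in replicates 1 to 4. The median deviations of the G2/M list were 0.02, 0.03, 0.02 and -0.05, but its genes did not share 1 order. Of the 22, 9 were lowest in replicate 4 and 9 in replicate 2, and MKI67 (0.23) and CENPF (0.10, named after its value was seen) were highest in replicate 4. The closest genes to HMMR over the libraries were TIFA, FAM210A and WBP5 (root-mean-square differences of 0.0054, 0.013 and 0.013 log2 units). As many as 2963 of 9479 genes lay within 0.1. The deviations of HMMR were themselves small (SD of log2 CPM 0.12), so genes that hardly vary also lie near it. That number therefore does not show how many genes share its library order. Of the 22 G2/M genes, 19 had a RefSeq window, and CCAAT was found in 17, TTTGAA in 11 and both in 10 of those. Both occurred in 4.69% of all windows. The units differ, as a gene was counted if any of its windows matched, and the percentage is over single windows. Of the 10 HMMR partners, 7 had a window, and CCAAT was found in 4 and TTTGAA in 0 of those.

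**Figure D4:**
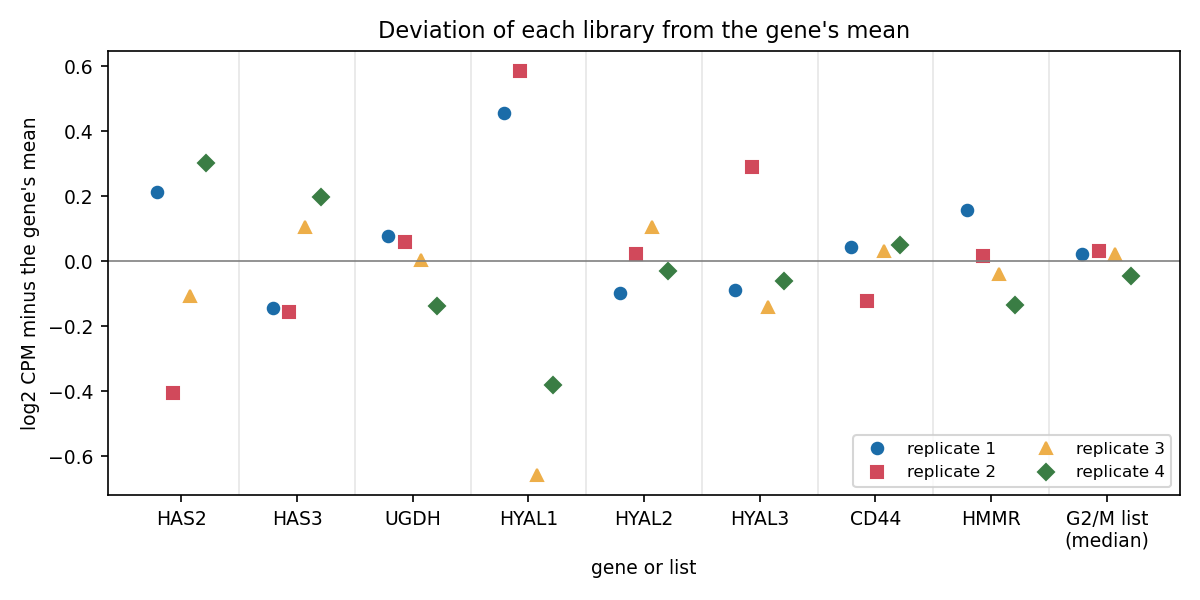
Deviation of log2 CPM in each library from the gene's mean over the 4 libraries, for the 8 genes tested and for the median of the G2/M list. Replicate 2 is the lowest library for HAS2, HAS3 and CD44 and the highest for HYAL1 and HYAL3, and HMMR is lowest in replicate 4. Of these, HAS3, HYAL1 and HYAL3 were not called as varying beyond counting noise. The G2/M median hides genes that differ in order: 9 of 22 were lowest in replicate 4 and 9 in replicate 2.

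Other receptors and binding proteins were few. Layilin (LAYN), a C-type lectin receptor for hyaluronan, had 29.5 ± 2.01 CPM (9.38 CPM per kilobase), and TLR4, reported to respond to hyaluronan fragments, had 48.7 to 54.4 CPM (3.82 CPM per kilobase), and both were called as varying, though 1 of the pair was not without replicate 1 or replicate 4. The endothelial and sinusoidal receptors were near 0: STAB1 had 0.0634 ± 0.0366 and STAB2 0.124 ± 0.0549 CPM. LYVE1 had 9 counts in replicate 3 and 0 in the others, and TLR2 had 2 counts in replicate 2 only. Of 18 genes listed for binding hyaluronan or forming its complexes, most of them for matrix or serum proteins, 4 reached 1 CPM in every library and 5 had 0 counts in all. PTX3, which helps to cross-link hyaluronan, was highest at 39.8 CPM per kilobase (77.1 ± 4.78 CPM), followed by versican (VCAN) at 4.82 (71.6 ± 9.10 CPM) and HABP4, which is known as an intracellular RNA-binding protein, at 3.03 (12.3 ± 0.141 CPM). Brevican (BCAN) had 2.10 ± 0.506 CPM and the largest SD of log2 CPM among the called genes (0.32). VCAN was lowest in replicate 2, at 58.8 CPM against 72.5 to 80.3 CPM in the other libraries. Of the 6 tested, 3 were called, and HABP4 was not.

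Of 18 genes next to or overlapping a member, 11 were detected and 10 of 12 tested were called. Without replicate 3, 6 were called, and without replicate 4, 4 were. The number called over all genes also fell, from 9944 to 9376 without replicate 3 and to 7786 without replicate 4. On the hyaluronidase locus of chromosome 3, IFRD2 (95.4 ± 10.5 CPM) stood above HYAL2 in CPM per kilobase (25.7 against 6.41). UTP4 and CHTF8, beside HAS3, had 21.4 and 27.1 CPM per kilobase, above HAS3 at 0.640. CD44-AS1, inside CD44 on the opposite strand, had 20, 12, 14 and 29 counts, and AL133330.1, in a CD44 intron, had 17, 11, 29 and 50. AC004690.1, a pseudogene within SPAM1, had 0 counts.

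In order of level per kilobase, the 10 genes ran CD44, HMMR, UGDH, HYAL2, HAS2, HYAL3, HAS3 and HYAL1, followed by HAS1 and SPAM1 at 0. Library ranges of neighbours in this order did not overlap, except for HAS2 (1.06 ± 0.228 CPM per kilobase) and HYAL3 (0.992 ± 0.144), which did not differ beyond their spread, and the pair at 0. Each of the 5 ratios gave p = 0.125 in an exact two-sided permutation test that flips signs by library, with or without Benjamini-Hochberg adjustment over the 5. With 4 libraries no smaller p exists, so this test cannot reach 0.05.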

How the data were processed

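RNA was sequenced as read pairs from 4 KDAC8 knockout HT1080 libraries after removal of ribosomal RNA, per the labels' protocols. The submitters' processing notes name RSEM 1.3.3, Bowtie2 2.5.4, DESeq2 1.46.0, Trimmomatic 0.39 and GRCh38, without their roles. The annotation release, strand setting and filters are not stated there. The authors deposited expected counts per Ensembl gene, not scaled between libraries and not whole in 10.6% to 11.9% of values, and 0 columns of per-sample values were unused. Here they were rounded and scaled with edgeR 4.0.16 (TMM) in R 4.3.3. Logs added 0.01 CPM.

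Variation was tested with a chi-square test (scipy 1.17.1, 3 degrees of freedom, mean count of 10 or more) with Benjamini-Hochberg adjustment at 0.05 over all genes, and tested on simulated data. Intervals and limits cover counting error only. Positions and lengths came from GENCODE 29, which held 94.0% of gene IDs, and promoter windows from RefSeq (GRCh38.p14). The members and the 14 lists (145 genes, all matched) were chosen with earlier results of these data known. Named genes were all members, all of the other turnover and receptor genes, and in each other list the 4 highest per kilobase and the most variable called gene, plus genes overlapping a member and, for called members whose libraries spanned at least 1.2 times, the 3 genes closest in pattern. Some list genes are not reported here. Marker genes that this rule names are partly given only in counts. Genes named outside it (GFPT1, THY1, S100A4, CDH1, KRT5, HDAC8, CENPF, UXS1, SLC35D1 and the ESRP genes) were chosen after their values were seen. Alternatives were DESeq2 1.42.0 size factors, total counts, no count filter, other lengths, thresholds and noise terms, and leaving out each library.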

Additional observations from a re-analysis of the deposited data

Results flagged for a closer look

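Single libraries that stood apart from the other 3 were screened in the 70 genes named by rule with a value above 0, and 8 were found. Chance flags about 1 group in 20, a rate that does not apply to the 4 genes with 0 counts in the other libraries, which meet the criterion by construction. Among the hyaluronan genes, CD44 in replicate 2 had 1432 CPM, below 1592 to 1612 CPM in the other libraries, and HYAL3 in replicate 2 had 2.45 CPM, above 1.81 to 1.92 CPM. UGDH-AS1 in replicate 4 had 103 CPM, above 51.1 to 53.8 CPM, and SPARC, a matrix gene, had 343 CPM in replicate 2, below 388 to 396 CPM. Those 4 were near 0: LYVE1 had 0.199 CPM in replicate 3, TLR2 0.0475 CPM in replicate 2, CD3E 0.0442 CPM in replicate 3 and ACR 0.0221 CPM in replicate 3. The share of short structural RNAs was also highest in replicate 2, and its part in these values was not tested.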

How the results depend on the processing

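The count of varying members was 5, and 4 to 5 when a library was left out. Over all genes the count was 9944, and 7786 to 9376 when a library was left out. Once the replicate spread was allowed, 0 members were called, and 724 of all genes in place of 9944. Of 63 repeats of single calls, 54 kept their side of the threshold and 9 lost the call, 5 of these with the replicate spread allowed. The 63 include repeats for HAS3, HYAL1 and HYAL3, which had no call to lose. Detected members numbered 7 in every scaling and without any library, and 4 at 1 CPM per kilobase. Per kilobase, family shares moved to 62.1% for HAS2, 37.9% for HAS3, 85.6% for HYAL2 and 13.2% for HYAL3. Left-out libraries moved the varying counts to 1 to 2 for other receptors (1 with total counts) and 1 to 3 for other turnover genes. They moved to 4 to 9 for genes at members' loci and 0 to 1 for haematopoietic markers. These changes are to be read beside the fall over all genes given above. Ratios kept their direction under every length, rounding and left-out library tried; HAS2 over HAS3 was 0.38 without length and 0.39 on the longest transcript. The coefficient of variation was 0.0810 to 0.110 without 1 library. Counts were lowest for HYAL1, at 7 to 16 per library, which limits its precision most. No paired analysis was possible because the series has 1 group.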
